A study of Mus musculus with 30 samples.

Results

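Astrocyte-associated genes were examined in cultures of primary mouse microglia. A list of 39 gene symbols was matched to the 13788 gene symbols of the deposited table, and 37 were found. Gjb6 and Aspg were not analysed here. All 37 members passed the low-value filter (a value of at least 10 in at least 3 of 30 libraries), as did 13722 genes in all. Members were matched by symbol with no threshold on a value, but the list was drawn up with earlier results of these data known, so its counts are not independent evidence of a direction. The question was whether the members differed between cultures by one common factor or by unequal amounts.

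Astrocytes are the glial cells that clear glutamate and potassium from the space around neurons, couple to each other through gap junctions, and place water channels on their end-feet along blood vessels. Their intermediate filaments, secreted proteins and metal-binding proteins rise when they react to injury or inflammation, a change called reactivity. Microglia for culture are usually shaken off a mixed glial layer that consists largely of astrocytes, and microglia themselves also transcribe some genes used as astrocyte markers, such as Vim, Glul and Cd44.

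Total RNA came from microglia of mouse brain, detached by shaking after 5 to 8 days in primary culture. There were 10 groups of 3 libraries. A set of 5 groups carried the label PD-1 KO, a knockout of the inhibitory receptor PD-1, and the other 5 the label WT. Each label had cultures at 0 h, cultures kept for 2 h or 8 h with conditioned medium containing amyloid-beta (the peptide of Alzheimer plaques), and cultures at 2 h or 8 h without it. Which medium the cultures without amyloid-beta received is not stated, nor whether the 3 libraries of a group came from separate animals. The p-values therefore rest on a spread among libraries that may be technical. In bulk RNA, more cells of a type and more RNA per cell cannot be told apart.

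The values are gene counts scaled per library and floored at 1, with 4227019 to 48509985 reads per library (median 9603082) behind them. Pdcd1, the gene of PD-1, goes against the labels: it was at 6.02 to 25.3 in all 15 libraries labelled PD-1 KO and at the floor in all 15 labelled WT. The values are per gene and do not show which part of Pdcd1 the reads cover, so groups are named below as labelled. All 12 microglia markers checked were in the table, with summed values of 61263 to 113600 under the PD-1 KO label and 84543 to 144570 under the WT label. Each difference is given on the log2 scale with its standard error, from limma's moderated test, and a member is called when its Benjamini-Hochberg adjusted p over the 13722 genes is under 0.05.

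Astrocyte genes were higher under the PD-1 KO label almost without exception, by amounts that ran from nothing measurable to 16.3-fold. Over all 5 conditions, 36 of the 37 members were called higher and 0 lower, against 59.5% of all tested genes called in either direction, 30.3% higher and 29.1% lower. Their median difference was 2.39, beside -0.02 over all tested genes. Glul was the exception, at 0.02 ± 0.04 (adjusted p = 0.787), and the highest adjusted p among the other 36 was 0.0037, for Mt1. In 30 of 37 members every one of the 15 libraries labelled PD-1 KO lay above every one of the 15 labelled WT, which held for 7.64% of tested genes. The 7 members whose labels overlapped were Glul, F3, Bcan, Cd44, Fabp7, Mt1 and Mt2.

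**Figure D1:**
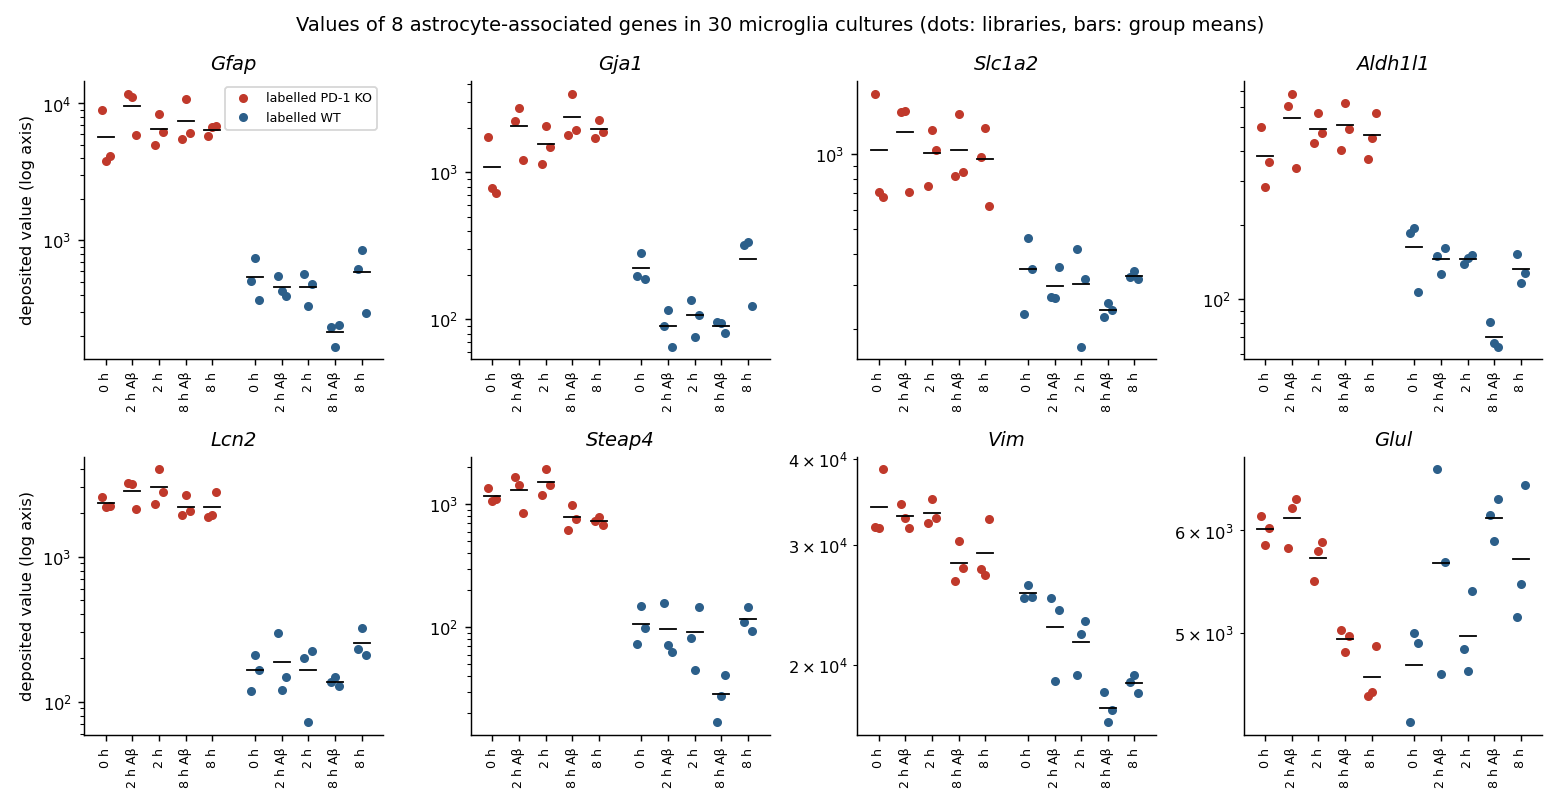
Deposited values (log axis) of 8 astrocyte-associated genes in each of 30 libraries, with the 5 conditions labelled PD-1 KO (red) left of the 5 labelled WT (blue); dots are libraries, bars are means of 3, and Aβ marks amyloid-beta medium. Gfap, Gja1, Slc1a2, Aldh1l1, Lcn2, Steap4 and Vim show no overlap between the labels, while Glul overlaps.

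The genes of junctions, channels and ion transport showed differences of 1.35 to 3.64. Gja1, which encodes the gap junction protein connexin 43, had a median of 1810 (lowest 727, highest 3432) under the PD-1 KO label and a median of 117 (lowest 65.4, highest 335) under the WT label. Aqp4, the water channel of astrocyte end-feet, had a median of 3568 (2523 to 5172) under the PD-1 KO label against 345 (166 to 800) under the WT label. In both genes the lowest library labelled PD-1 KO stood above the highest labelled WT. Gja1 was higher by 3.64 ± 0.16 (adjusted p = 3.8e-17) and Aqp4 by 3.45 ± 0.14 (adjusted p = 5.64e-18). Mlc1, a membrane protein of perivascular end-feet, had a median of 2724 (1361 to 4502) under the PD-1 KO label against 212 (118 to 621) under the WT label. Mlc1 was higher by 3.49 ± 0.15, and Slc4a4, a sodium bicarbonate cotransporter, by 3.01 ± 0.15. Ttyh1, an anion channel protein, stood at 2.71 ± 0.14. Atp1b2, a subunit of the sodium-potassium pump, had the smallest difference of this group, 1.35 ± 0.11.

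Genes of transmitter handling spanned nearly the whole range. Slc6a11, the GABA transporter GAT-3, had a median of 98.2 (46.8 to 187) under the PD-1 KO label against 6.61 (1 to 18.5) under the WT label, where 1 of 15 libraries was at the floor. The glutamate transporter genes differed less: Slc1a3 (GLAST) by 2.70 ± 0.10 and Slc1a2 (GLT-1) by 1.77 ± 0.15. Slc1a2 had a median of 974 (622 to 1752) under the PD-1 KO label and of 316 (169 to 463) under the WT label, without overlap. Glul, glutamine synthetase, which turns the captured glutamate into glutamine, had a median of 5780 (4465 to 6350) under the PD-1 KO label and of 5383 (4264 to 6690) under the WT label. The Glul libraries of the labels overlapped, and its 95% interval over all conditions was -0.08 to 0.11. Its call depended on the scaling: with quantile normalization it was 0.20 (adjusted p = 6.91e-05) and with voom on the recovered reads 0.15 (adjusted p = 0.00152). Slc6a11, at 3.88 ± 0.21, was among the 3 largest differences of the list, and was 2.78 with a pseudocount of 10.

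The metabolic genes and a zinc transporter gene formed the narrowest group. Aldh1l1, a folate enzyme used as a pan-astrocyte marker, had a median of 471 (286 to 681) under the PD-1 KO label and of 139 (64.3 to 195) under the WT label. Aldh1l1 was higher by 1.88 ± 0.10, Aldoc (a brain aldolase of glycolysis) by 1.84 ± 0.13, Slc39a12 (a zinc importer) by 1.74 ± 0.12 and Acsbg1 (an acyl-CoA synthetase for long fatty acids) by 1.60 ± 0.09. All 4 lay below the list's median difference.

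Receptor, adhesion and matrix genes divided. Ntsr2, a neurotensin receptor found on astrocytes, was higher by 3.66 ± 0.22 (2.41 with a pseudocount of 10), with a mean of 75.8 ± 27.1 under the PD-1 KO label and 5.82 ± 3.93 under the WT label (SD, n = 15 each). Fgfr3, a fibroblast growth factor receptor, was higher by 2.65 ± 0.12, Sparcl1 (hevin, a secreted synapse-inducing protein) by 2.45 ± 0.12, Hepacam (GlialCAM, the adhesion partner of Mlc1) by 1.96 ± 0.12 and F3 (tissue factor, which starts coagulation) by 1.80 ± 0.16. Bcan, the matrix proteoglycan brevican, differed by only 0.67 ± 0.08, with a median of 432 (317 to 628) under the PD-1 KO label and of 304 (128 to 470) under the WT label. Bcan is 1 of the 7 members whose labels overlapped. Sox9, a transcription factor that drives astrocyte development, had a median of 660 (331 to 1010) under the PD-1 KO label against 108 (79.4 to 168) under the WT label. Id4, an inhibitor of DNA binding by helix-loop-helix factors, had a median of 344 (175 to 598) under the PD-1 KO label against 23.3 (11.8 to 72.1) under the WT label. Both were free of overlap, with differences of 2.52 ± 0.12 for Sox9 and 3.52 ± 0.17 for Id4.

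The secreted and cytoplasmic markers were close to one another except for 2 lower ones. Clu, the lipid-carrying chaperone clusterin, had a median of 3915 (2266 to 6270) under the PD-1 KO label against 534 (297 to 903) under the WT label. S100b, a calcium-binding protein, had a median of 283 (135 to 506) under the PD-1 KO label against 36.1 (19.5 to 59.5) under the WT label. Neither gene's labels overlapped. Clu differed by 2.92 ± 0.12, Cpe (carboxypeptidase E) by 2.93 ± 0.12 and S100b by 2.87 ± 0.16. Mt3, the brain metallothionein, stood at 2.39 ± 0.12 and Ndrg2, a stress-responsive cytoplasmic protein, at 2.08 ± 0.13.

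The filament and precursor genes differed unequally. Gfap, the filament protein that defines reactive astrocytes, had a median of 6205 (3799 to 11792) under the PD-1 KO label and of 426 (168 to 853) under the WT label. Vim, the filament protein vimentin, had a median of 31848 (26586 to 38647) under the PD-1 KO label and of 19364 (16502 to 26204) under the WT label. Both sets were free of overlap, but Gfap differed by 4.03 ± 0.15, the largest value of the 37, and Vim by 0.58 ± 0.05. Nes, the filament protein of neural precursors, had a median of 2803 (2214 to 3893) under the PD-1 KO label against 1183 (774 to 1985) under the WT label, and a difference of 1.33 ± 0.08. Fabp7, the fatty acid carrier of radial glia, had a median of 1069 (686 to 1368) under the PD-1 KO label against 593 (202 to 1129) under the WT label, with overlap, and a difference of 1.04 ± 0.11. Per kilobase of exon, the mean level of Vim in libraries labelled WT (4466) was already the highest of the list and that of Gfap (107) far lower. Over the 37 members, Spearman's rho between the level per kilobase in libraries labelled WT and the log2 difference was -0.55, a description over genes that share the same 30 libraries, with the WT level entering both measures.

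The reactive genes also split widely. Lcn2, the iron-sequestering lipocalin 2, had a median of 2292 (1864 to 4000) under the PD-1 KO label against 165 (72.1 to 324) under the WT label, a difference of 3.85 ± 0.14. Steap4, a metalloreductase, had a median of 1058 (622 to 1922) under the PD-1 KO label against 82.5 (17 to 157) under the WT label, a difference of 3.79 ± 0.16. Serpina3n, a serine protease inhibitor, had a median of 1326 (1012 to 1738) under the PD-1 KO label against 307 (110 to 612) under the WT label, a difference of 2.19 ± 0.16. None of these 3 overlapped between the labels. Cd44, the hyaluronan receptor, had a median of 4487 (3179 to 6050) under the PD-1 KO label and of 3062 (2258 to 3979) under the WT label, with a difference of 0.51 ± 0.06.

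The metallothionein genes, which encode small proteins that bind zinc and copper, lie side by side on chromosome 8 (GRCm38; Mt3 at 94152607 to 94154146, Mt2 at 94172664 to 94173568, Mt1 at 94179082 to 94180327, all on the plus strand) and differed unequally. Mt1 had a median of 3551 (2188 to 4744) under the PD-1 KO label and of 2782 (2361 to 4527) under the WT label. Mt2 had a median of 2148 (1114 to 2977) under the PD-1 KO label and of 1006 (750 to 1212) under the WT label. Mt3 had a median of 1305 (666 to 2402) under the PD-1 KO label and of 269 (160 to 416) under the WT label. Only Mt3 of the 3 had labels that did not overlap, and the differences were 0.26 ± 0.07 for Mt1 (adjusted p = 0.0037), 1.05 ± 0.08 for Mt2 and 2.39 ± 0.12 for Mt3. Exons of Gm45774, on the opposite strand, cover 73.5% of the exonic bases of Mt2, and whether counting used the strand is not given in the sources used here, so the value of Mt2 is uncertain. To show what stands upstream of 3 neighbours with unlike differences, their RefSeq promoters (GRCm38.p6, plus strand, 250 bases before to 50 after the start, 5′ to 3′) are printed with matches to the core of the metal response element, TGCACNC or TGCGCNC on either strand, in capitals: chr8:94178839-94179138, chr8:94172368-94172667 and chr8:94152357-94152656.
Mt1: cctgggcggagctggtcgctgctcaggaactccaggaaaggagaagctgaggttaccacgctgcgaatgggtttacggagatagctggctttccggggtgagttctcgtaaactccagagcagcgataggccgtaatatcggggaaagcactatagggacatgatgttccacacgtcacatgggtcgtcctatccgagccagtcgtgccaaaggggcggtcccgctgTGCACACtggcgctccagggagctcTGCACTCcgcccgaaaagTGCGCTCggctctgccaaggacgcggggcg
Mt2: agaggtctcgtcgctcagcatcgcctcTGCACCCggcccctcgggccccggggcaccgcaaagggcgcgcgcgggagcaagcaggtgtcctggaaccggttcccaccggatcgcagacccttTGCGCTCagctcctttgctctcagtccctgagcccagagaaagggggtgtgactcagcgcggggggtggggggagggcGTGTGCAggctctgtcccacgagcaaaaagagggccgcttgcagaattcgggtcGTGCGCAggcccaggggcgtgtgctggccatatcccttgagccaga
Mt3: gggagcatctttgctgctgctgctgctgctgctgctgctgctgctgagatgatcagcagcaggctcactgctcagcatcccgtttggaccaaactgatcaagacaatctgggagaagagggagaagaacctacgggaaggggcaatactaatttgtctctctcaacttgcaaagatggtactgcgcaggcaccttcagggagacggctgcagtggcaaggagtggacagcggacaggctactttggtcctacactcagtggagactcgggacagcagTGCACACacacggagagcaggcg

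The Mt2 window held 4 matches, the Mt1 window 3 and the Mt3 window 1, none overlapping another. The windows follow RefSeq starts, which differ from the gene starts given above. The Mt2 window ends at 94172667, just past its gene start of 94172664. That of Mt1 ends at 94179138, against a gene start of 94179082. The windows are not placed alike and can miss sites nearer the start in use, so the counts do not compare the 3 promoters. At least 1 match stood in 25.7% of the 32851 reference promoters and at least 4 in 0.517%. A match was found for 9 of the 33 members with a reference promoter.

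Gfap and Steap4 were among the members with the largest differences between labels, and both were among those lower with amyloid-beta in the WT-labelled cultures described further on. Their RefSeq promoters (GRCm38.p6, same window, 5′ to 3′ on the gene's strand; chr11:102897151-102897450, minus strand, and chr5:7960222-7960521, plus strand) are shown because of this, with matches to TTCNNNGAA, the palindromic site of STAT factors, which relay cytokine signals to the nucleus in reactive astrocytes, in capitals.
Gfap: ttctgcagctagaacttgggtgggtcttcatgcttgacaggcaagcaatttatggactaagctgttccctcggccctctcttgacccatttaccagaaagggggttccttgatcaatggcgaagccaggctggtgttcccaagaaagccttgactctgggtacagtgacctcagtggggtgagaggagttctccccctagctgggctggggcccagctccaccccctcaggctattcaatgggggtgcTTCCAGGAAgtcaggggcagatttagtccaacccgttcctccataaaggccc
Steap4: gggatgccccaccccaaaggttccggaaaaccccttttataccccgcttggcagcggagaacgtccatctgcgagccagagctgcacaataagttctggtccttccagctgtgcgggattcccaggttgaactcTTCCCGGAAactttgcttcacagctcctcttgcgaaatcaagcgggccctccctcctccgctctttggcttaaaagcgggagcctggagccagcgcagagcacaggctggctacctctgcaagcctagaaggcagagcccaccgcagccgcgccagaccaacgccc

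Each window held 1 match. The motif occurred in 8.3% of the 32851 promoters and in 6 of the 33 member genes with a promoter (Acsbg1, Aldoc, Gfap, Ntsr2, Slc1a3 and Steap4). Gja1 and Aqp4, which also had large label differences and were lower with amyloid-beta, were not among these 6, nor was Lcn2. Which members lacked a reference promoter is not given. A match is a run of letters and not a measured binding site.

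**Figure D2:**
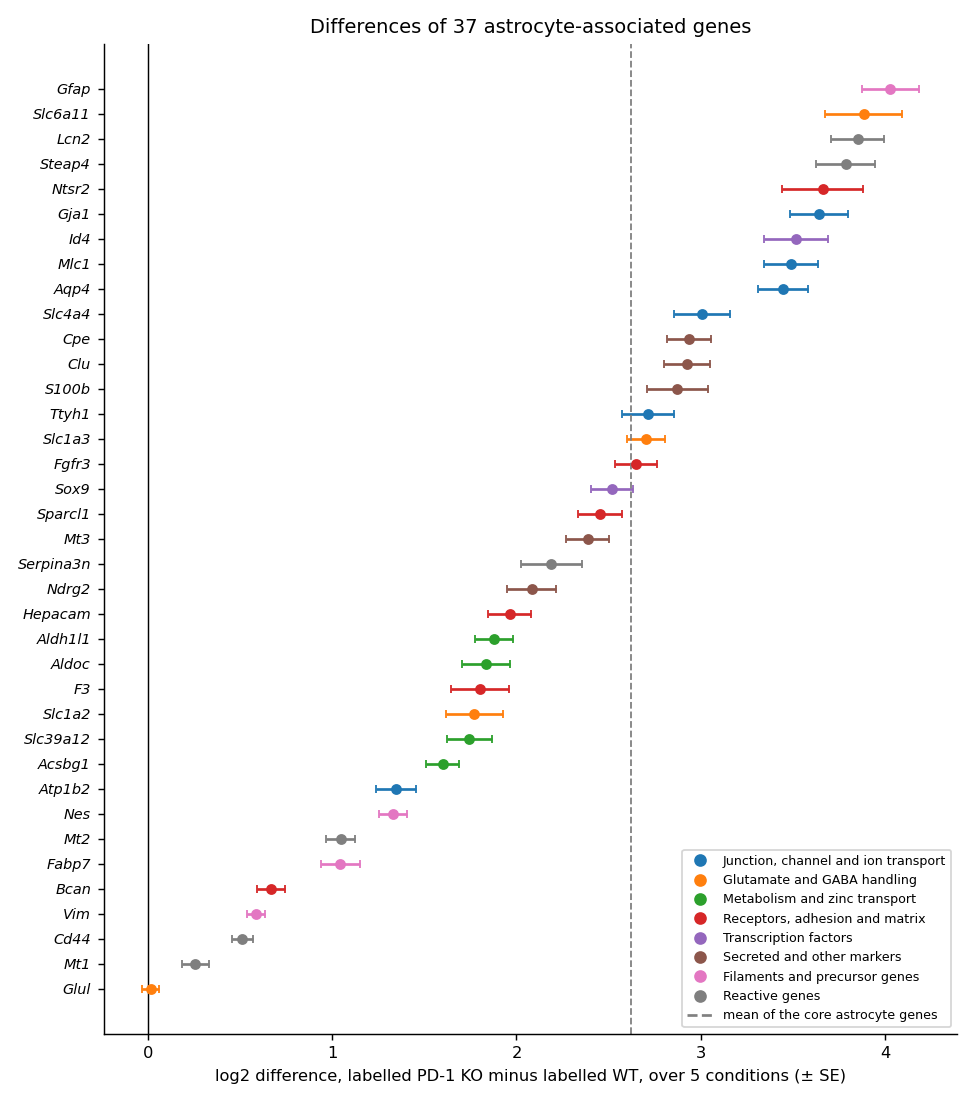
Log2 difference, libraries labelled PD-1 KO minus libraries labelled WT over 5 conditions, for each of 37 members, with standard errors; colours mark functional groups and the dashed line the difference of the core astrocyte mean, 2.62. Members range from Glul at 0.02 to Gfap at 4.03, with members of most colours on both sides of the line.

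To describe how far members departed from a common factor, each library's core astrocyte level was taken as the mean log2 value of 11 markers (Gja1, Aqp4, Slc1a2, Aldh1l1, Ntsr2, Slc4a4, Mlc1, Hepacam, Fgfr3, Acsbg1 and Slc39a12). This level was 8.51 to 9.75 under the PD-1 KO label and 5.77 to 7.39 under the WT label, and the labels differed by 2.62. Each member was then tested relative to this level, a core gene leaving itself out. If the total values of all members had moved by one factor, these relative differences would all be 0, and they spread from -2.61 to 1.41. A member also transcribed by microglia would differ less on the log2 scale even if astrocyte RNA changed by one factor. The values cannot tell this from unequal change within astrocytes, and it was not tested.

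Relative to the core, 12 of 37 members were called higher and 18 lower under the PD-1 KO label, against 97.8% of all tested genes called in either direction, 2.3% higher and 95.5% lower. With that background the adjusted threshold is hardly stricter than an unadjusted p of 0.05. Restricted to relative differences of at least 0.5, a size chosen after the data were seen, 9 members were higher and 17 lower, and 11 lay in between. The 9 were Gfap (1.41 ± 0.13), Slc6a11 (1.26 ± 0.17), Lcn2 (1.23 ± 0.14), Steap4 (1.16 ± 0.15), Ntsr2 (1.14 ± 0.19), Gja1 (1.12 ± 0.13), Mlc1 (0.95 ± 0.13), Aqp4 (0.91 ± 0.13) and Id4 (0.89 ± 0.14). Ntsr2 and Slc6a11 rest on low values under the WT label and came to 0.005 (adjusted p = 0.966) and 0.37 with a pseudocount of 10. Single conditions differed from these averages. At 0 h limma did not call Gja1 (0.43 ± 0.28), Mlc1 (0.43 ± 0.29) or Id4 (0.41 ± 0.31). Without amyloid-beta it did not call Ntsr2 (-0.03 ± 0.41) or Slc6a11 (0.71 ± 0.38) at 2 h, or Aqp4 (0.56 ± 0.29) or Id4 (0.58 ± 0.31) at 8 h. Gfap was called at 0 h and, without amyloid-beta, at 2 h and 8 h.

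The 17 that rose less than the core, or not at all, were led by Glul (-2.61 ± 0.15), Mt1 (-2.37 ± 0.15), Cd44 (-2.11 ± 0.15), Vim (-2.04 ± 0.16) and Bcan (-1.95 ± 0.13), followed by Fabp7, Mt2, Nes, Atp1b2, Acsbg1, Slc39a12, Slc1a2, F3, Aldh1l1, Aldoc, Hepacam and Ndrg2. The 11 in between, within 0.5 of the core, were Slc1a3, S100b, Sox9, Fgfr3, Slc4a4, Clu, Cpe, Ttyh1, Sparcl1, Mt3 and Serpina3n. Each of the 11 core genes is set against the other 10, so their values sum to 0 by construction and their split into higher and lower is no result. They ran from -1.13 for Acsbg1 to 1.14 for Ntsr2. Of the 26 members outside the core, 5 were higher and 12 lower by this size. The reactive genes divided as well over all conditions: Lcn2 and Steap4 were above the core, Serpina3n near it (-0.43 ± 0.16), and Cd44, Mt1 and Mt2 below it. By condition, limma called Lcn2 (2.08 ± 0.32) and Steap4 (1.72 ± 0.33) above the core at 0 h. It also called both at 2 h without amyloid-beta (1.73 ± 0.32 and 1.58 ± 0.33). At 8 h without amyloid-beta neither was called: Lcn2 was at 0.64 ± 0.32 (adjusted p = 0.0532) and Steap4 at 0.21 ± 0.33 (adjusted p = 0.533).

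Replicates of a single group gave a second view, since they share label, time and treatment. Across the 30 libraries, each member's deviation from its group mean was set against that of the core. A slope of 1 is equal movement on the log2 scale and a slope of 0 no shared movement. A steady amount of RNA from microglia would also lower a member's slope. The median slope over the 37 members was 0.86 with both labels pooled, 0.88 under the PD-1 KO label and 0.575 under the WT label, and 4 members under the PD-1 KO label and 11 under the WT label had slopes below 0.3. With both labels pooled, Sox9 (0.92 ± 0.08), Clu (0.96 ± 0.12), Cpe (0.96 ± 0.10) and Aldoc (0.98 ± 0.13) lay near 1, with Gfap at 1.28 ± 0.10, Gja1 at 1.34 ± 0.12 and Ntsr2 highest at 1.41 ± 0.29. Under 0.3 in the pooled slopes were Cd44 (-0.09 ± 0.10), Glul (-0.06 ± 0.08), Mt1 (-0.01 ± 0.14), Vim (0.03 ± 0.08) and Mt2 (0.23 ± 0.15). Lcn2 (0.67 ± 0.24) and Steap4 (0.76 ± 0.27) were below 1 although both exceeded the core between the labels over all conditions. Some slopes near 1 were higher under the PD-1 KO label. Clu had a slope of 1.12 ± 0.10 under the PD-1 KO label and 0.675 ± 0.215 under the WT label. Aldoc had one of 1.16 ± 0.08 under the PD-1 KO label and 0.67 ± 0.27 under the WT label. Ndrg2 had a slope of 1.28 ± 0.08 under the PD-1 KO label and 0.17 ± 0.26 under the WT label, and Cpe one of 1.16 ± 0.10 under the PD-1 KO label and 0.57 ± 0.13 under the WT label. Mt2 had a slope of 0.55 ± 0.12 under the PD-1 KO label and -0.36 ± 0.20 under the WT label. The slopes were not tested against each other.

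**Figure D3:**
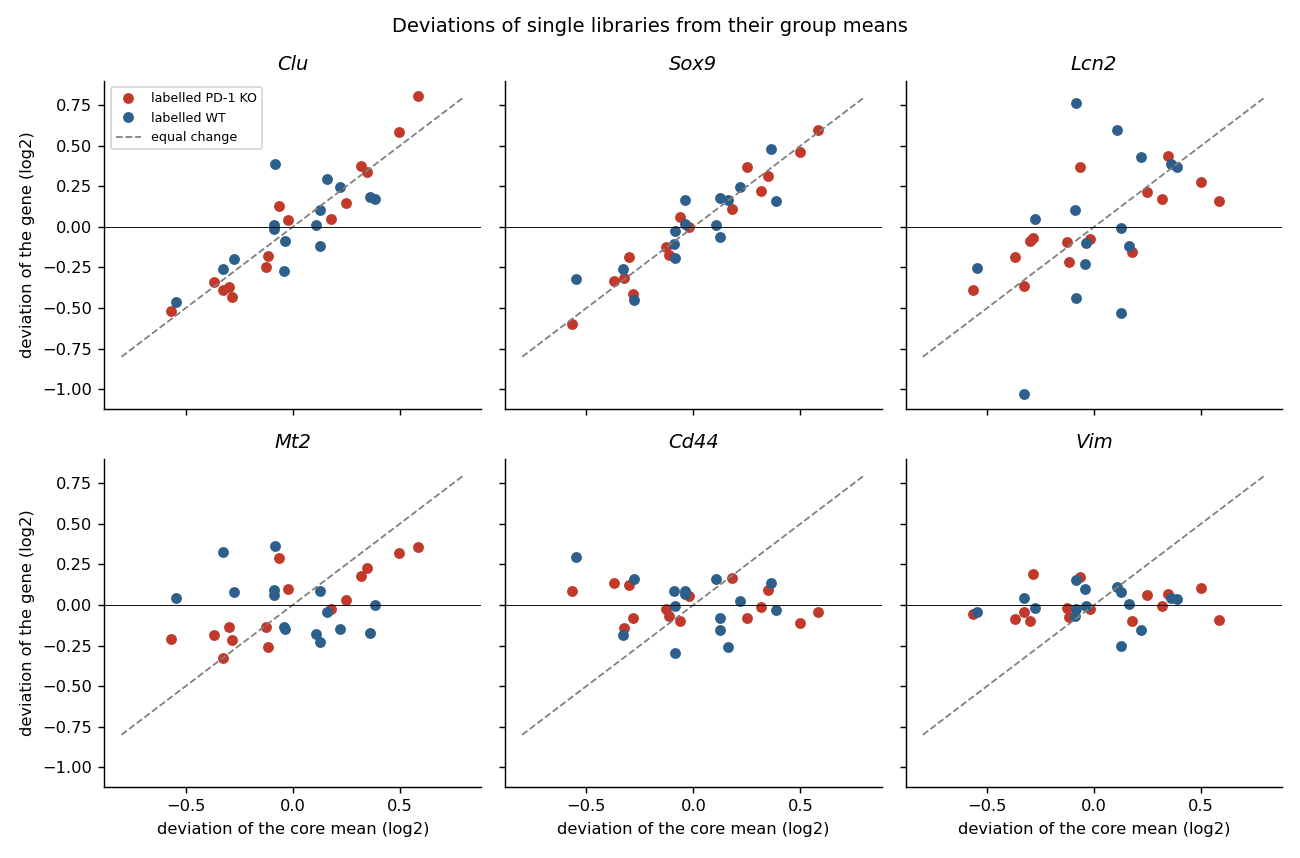
Deviation of each library from the mean of its group on the log2 scale, for 6 members (vertical) against the core astrocyte mean (horizontal), libraries labelled PD-1 KO in red and labelled WT in blue; the dashed line is equal change. With both labels pooled, Clu and Sox9 follow the line, Lcn2 scatters around it, and Cd44 and Vim stay flat, with slopes of -0.09 and 0.03. Under the WT label alone the slope of Clu was 0.675 ± 0.215.

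Members with larger slopes also had larger differences between the labels (Spearman's rho 0.80 over 37 members, a description, since all members are measured in the same libraries). A single axis carried 94.1% of the members' variance over all 30 libraries, with the label difference included and genes not scaled. With each gene scaled to unit SD the share was 84.7%, beside 31.2% for all tested genes. With group means removed and each gene scaled, the first axis carried 79.1% of the members' variance under the PD-1 KO label and 39.8% under the WT label, beside 27.9% and 31.3% for all tested genes in the same libraries. The core level varied between replicates, with an SD of 0.11 to 0.34 in 6 groups and of 0.45 to 0.51 in the other 4. In these 4, replicate 1 labelled PD-1 KO at 0 h was at 9.39 where the others were at 8.51 and 8.53, and replicate 3 labelled PD-1 KO at 2 h with amyloid-beta was at 8.75 where the others were at 9.56 and 9.63. Replicate 2 labelled PD-1 KO at 8 h with amyloid-beta was at 9.75 where the others were at 8.88 and 9.12, and replicate 3 labelled WT at 8 h without it was at 6.11 where the others were at 6.82 and 7.05.

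Lists of other genes were mixed: most further astrocyte, pan-reactive, A2 and ependymal genes were higher under the PD-1 KO label, while A1, neuron and microglia genes went both ways. Over all tested genes this comparison called 30.3% higher and 29.1% lower, so a list that goes both ways is no result about its genes. Of 22 further astrocyte genes in the table, 18 were higher and 2 lower under the PD-1 KO label, with a median of 1.44 beside -0.02 for all genes. Slc25a18, a mitochondrial glutamate carrier, was at 4.37 ± 0.15, Phkg1 (a phosphorylase kinase subunit) at 3.35 ± 0.24 and Entpd2 (an ectonucleotidase) at 3.29 ± 0.25. The 2 lower ones, named after their values were seen, were Htra1 (-0.65 ± 0.15), a secreted protease, and Mfge8 (-0.45 ± 0.07), a phosphatidylserine-binding protein. All 6 pan-reactive genes outside the list were higher (median 2.52), among them S1pr3 (3.70 ± 0.13), a receptor for a sphingosine phosphate, Osmr (3.0 ± 0.16), a receptor subunit for oncostatin M, and Cp (2.79 ± 0.09), the copper oxidase ceruloplasmin. Of 10 genes known as A1 genes, induced in astrocytes by inflammatory stimuli, 5 were higher and 4 lower (median 0.08), with Serping1, the complement C1 inhibitor, at 4.29 ± 0.22 and Gbp2, an interferon-induced GTPase, at 2.61 ± 0.10. The 4 lower ones, named after their values were seen, were H2-T23 (-0.97 ± 0.09), H2-D1 (-0.60 ± 0.05), Psmb8 (-0.52 ± 0.07) and Fbln5 (-0.47 ± 0.16). Of 11 genes known as A2 genes, induced after ischaemia, 9 were higher and 0 lower (median 1.27), with Tm4sf1 at 3.74 ± 0.16. Several A1 and A2 genes, such as H2-D1 and Cd14, are also expressed by microglia.

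Ependymal markers, of the ciliated cells that line the ventricles, had the largest median of the lists, 4.86: 7 of 7 were higher, with summed values of 1370 to 6255 under the PD-1 KO label against 74.2 to 462 under the WT label. All 7 were also called higher relative to the core, a count that stands against the background given above for the relative fit. Oligodendrocyte markers summed to 6541 to 10829 under the PD-1 KO label against 2494 to 5688 under the WT label (7 of 11 higher, 3 lower). Neuron markers summed to 1087 to 1811 under the PD-1 KO label and to 543 to 951 under the WT label (4 of 8 higher, 4 lower). Fibroblast and vascular markers summed to 775 to 1605 under the PD-1 KO label and to 235 to 1385 under the WT label (4 of 7 higher, 1 lower). Microglia markers went both ways, with 4 of 12 higher and 6 lower. Apart from the count relative to the core, these counts stand against 30.3% of tested genes called higher and 29.1% lower. Calls in both directions are therefore no result about a cell type. No marker of these lists was at the floor in every library of a label. Their part in the result was not tested.

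The difference between the labels was present at each time and treatment and varied in size. The counts of members called higher were 33 at 0 h, 35 at 2 h with amyloid-beta, 33 at 2 h without it, 34 at 8 h with it and 34 at 8 h without it, against backgrounds of 13.8%, 22.2%, 18.8%, 22% and 18% of tested genes called higher. Glul was called lower in both 8 h comparisons (-0.31 ± 0.10 with amyloid-beta and -0.30 ± 0.10 without), against 11.7% and 9.01% of tested genes called lower. Both calls were lost with quantile normalization (adjusted p = 0.475 with amyloid-beta and 0.0648 without) and with voom (0.143 and 0.105). No other member was called lower in any of the 5, where 6.88% of tested genes were called lower at 0 h, 16.7% at 2 h with amyloid-beta and 13.4% at 2 h without it. In 30 of 37 members the difference was called in all 5 conditions. The median difference of the members was 1.72 at 0 h, 2.56 at 2 h with amyloid-beta, 2.29 at 2 h without it, 3.09 at 8 h with it and 2.22 at 8 h without it. By member, the difference was largest at 8 h with amyloid-beta in 27 of 37 and smallest at 0 h in 28. For these counts of 30, 27 and 28 members no share of all tested genes was computed, so they are descriptions only.

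An F test asked, gene by gene, whether the label difference varied over the 5 conditions, and called 16 of 37 members against 5.72% of tested genes. Bcan passed with an adjusted p of 0.00196: the labels differed by 0.70 ± 0.17 at 0 h, 0.23 ± 0.17 at 2 h with amyloid-beta, 0.02 ± 0.17 at 2 h without it, 1.52 ± 0.17 at 8 h with it and 0.88 ± 0.17 at 8 h without it. Glul passed with an adjusted p of 0.00598: its group means labelled PD-1 KO were 6013 at 0 h, 4946 at 8 h with amyloid-beta and 4618 at 8 h without it, and those labelled WT were 4725, 6135 and 5702, so that with the deposited scaling its order turned round between 0 h and 8 h. Gja1 passed with an adjusted p of 0.0083, with label differences of 2.17 ± 0.35 at 0 h, 4.46 ± 0.35 at 2 h with amyloid-beta, 3.87 ± 0.35 at 2 h without it, 4.66 ± 0.35 at 8 h with it and 3.04 ± 0.35 at 8 h without it. The 16 fell to 3 with voom on the recovered reads and ran from 5 to 27 when single libraries were left out, with the lowest count without replicate 2 labelled WT at 0 h, replicate 2 or 3 labelled PD-1 KO at 0 h, or replicate 2 of the 8 h amyloid-beta group of either label, and the highest without replicate 1 labelled PD-1 KO at 0 h.

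Amyloid-beta medium was compared with none to ask whether astrocyte genes respond to it. In WT-labelled cultures at 8 h, 34 of 37 members had lower means with amyloid-beta, and 9 were called lower and 0 higher, against 2.18% of tested genes called in either direction, 2.05% lower and 0.131% higher. The members' median was -0.82, beside -0.004 for all tested genes. Steap4 was at 17, 27.9 and 40.8 with amyloid-beta against 111, 145 and 92.8 without it, a fall of 2.05 ± 0.36 on the log2 scale (adjusted p = 0.00206). Gfap was at 231, 168 and 239 with amyloid-beta against 615, 853 and 296 without it, and fell by 1.35 ± 0.34 (adjusted p = 0.0336). Neither gene's groups overlapped. Gja1 was at 95.5, 94.1 and 80.4 with amyloid-beta against 319, 335 and 123 without it, and fell by 1.38 ± 0.35 (adjusted p = 0.0336). Aqp4 was at 170, 166 and 194 with amyloid-beta against 485, 607 and 263 without it, and fell by 1.27 ± 0.30 (adjusted p = 0.0233). The groups of Gja1 and Aqp4 did not overlap either. In Gfap, Gja1 and Aqp4 alike, the third library without amyloid-beta lay between the amyloid-beta group and the remaining libraries without it.

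Clu (-1.22 ± 0.28), Ndrg2 (-1.19 ± 0.29), Acsbg1 (-1.01 ± 0.20), Aldh1l1 (-0.90 ± 0.23) and Bcan (-0.84 ± 0.17) were the other 5 called lower. In 20 of 37 members all 3 libraries with amyloid-beta lay below all 3 without it, as in 12.7% of tested genes. Relative to the core, which itself fell by 0.80 on the log2 scale, 6 members were called, against 56.6% of tested genes, 56% higher and 0.554% lower: Cd44 (1.15 ± 0.34), F3 (1.05 ± 0.35), Glul (0.91 ± 0.34) and Mt2 (0.72 ± 0.32) were higher relative to the core, and Steap4 (-1.25 ± 0.33) and Gja1 (-0.64 ± 0.28) fell further than it. This count was 0 with quantile normalization, 0 without replicate 1 or 2 of the group without amyloid-beta or replicate 2 of the amyloid-beta group, 12 without replicate 3 of the group without amyloid-beta, and 4 or 1 without replicate 1 or 3 of the amyloid-beta group. Ependymal markers summed to 81.4 to 94.3 with amyloid-beta against 188 to 462 without it (1 of 7 called lower, median -1.74). Oligodendrocyte markers summed to 2494 to 3409 with amyloid-beta against 3244 to 3792 without it (4 of 11 lower), and microglia markers to 86271 to 87538 with amyloid-beta against 97794 to 111930 without it (1 of 12 lower). Their part in the fall was not tested.

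The call rests on few libraries. Without replicate 1, 2 or 3 of the group without amyloid-beta the count of 9 became 2, 1 or 16, and without replicate 1, 2 or 3 of the amyloid-beta group 4, 2 or 4. Steap4 passed in each of these 6 fits, and voom on the recovered reads called 0 members (adjusted p = 0.133 for Steap4).

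**Figure D4:**
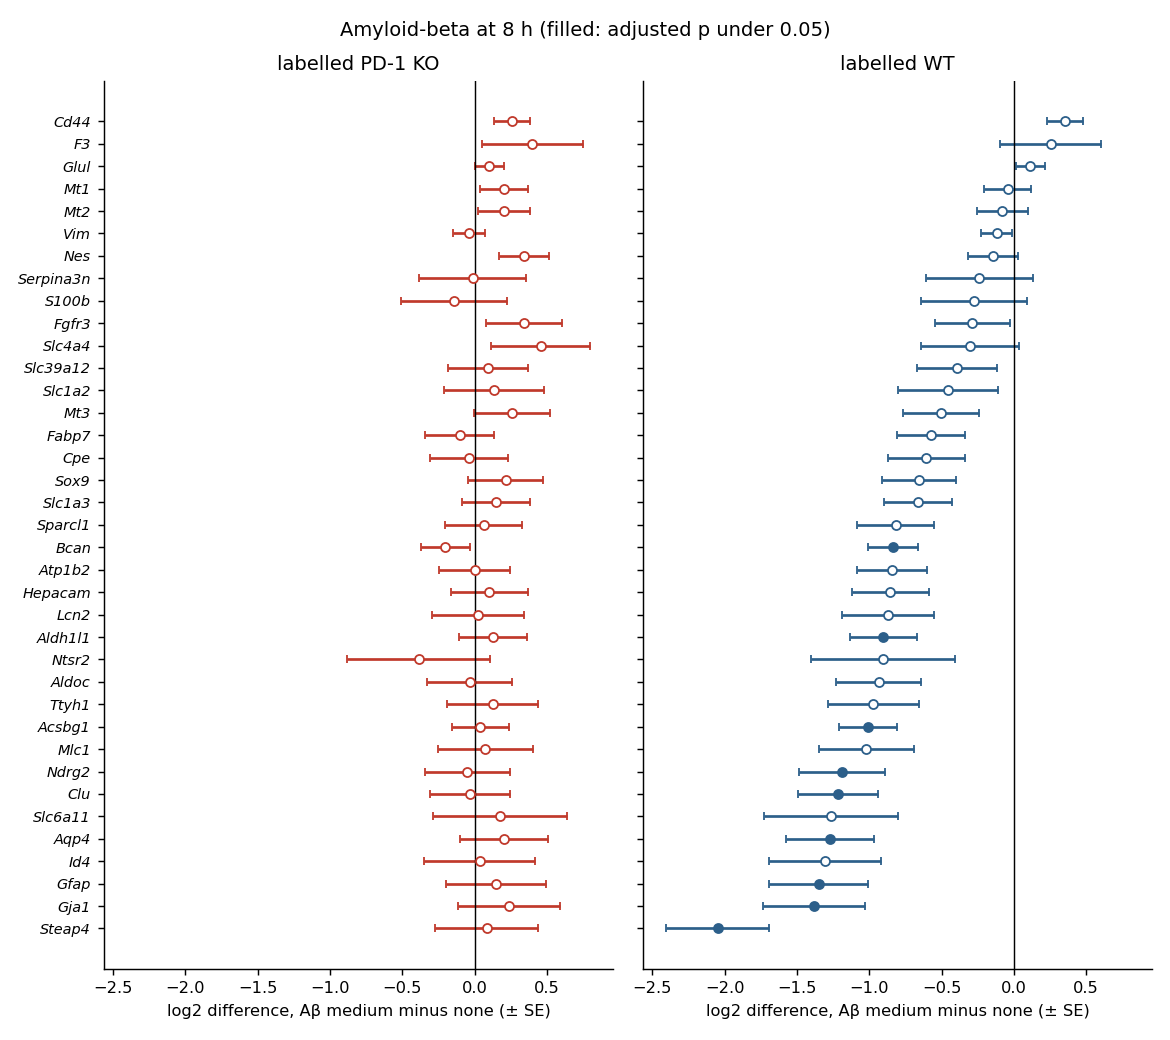
Log2 difference at 8 h, amyloid-beta medium minus none, for each of 37 members with standard errors, under the PD-1 KO label (left) and under the WT label (right); filled points have an adjusted p under 0.05. Under the WT label 34 points lie left of 0 and 9 are filled; under the PD-1 KO label 11 lie left of 0 and none is filled.

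In PD-1-KO-labelled cultures at 8 h the members scattered around 0 (median 0.10, 11 of 37 below 0), and limma called 0 (0.0583% of tested genes) and voom 0. At an unadjusted limma p under 0.05 there was 1 member, beside 1036 of the 13722 tested genes. Gfap was at 5459, 10809 and 6049 with amyloid-beta against 5743, 6719 and 6809 without it (0.15 ± 0.34, 95% interval -0.56 to 0.85). Steap4 was at 622, 986 and 764 with amyloid-beta against 733, 790 and 681 without it (0.08 ± 0.36, 95% interval -0.65 to 0.81). The groups overlapped in both genes. The falls under the WT label carry an error of their own, so these intervals alone do not compare the labels. Whether the amyloid-beta effect itself differed between the labels was tested as an interaction at 8 h: limma called 0 of 37 members (0% of tested genes) and voom 0. At an unadjusted limma p under 0.05 there were 20 members, all with the effect lower under the WT label, beside 810 of the 13722 tested genes. The interaction was 2.13 ± 0.50 for Steap4 (adjusted p = 0.246) and 1.5 ± 0.49 for Gfap (adjusted p = 0.481).

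At 2 h amyloid-beta called no member under either label (0% of tested genes in both). Under the PD-1 KO label the median was 0.22, with 1 member at an unadjusted limma p under 0.05, beside 615 of the 13722 tested genes. Under the WT label the median was -0.004, with 2 members beside 681 tested genes. Voom also called 0 in both. The interaction at 2 h called 0 members (0.051% of tested genes), and voom called 0. At an unadjusted limma p under 0.05 there were 3 members, beside 663 tested genes.

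Changes with time in culture were compared without amyloid-beta. The library numbers of the 8 h groups form a run apart from those of the 0 h and 2 h groups. What this means is not stated, and any difference tied to it cannot be told from time. Under the PD-1 KO label, Mt2 was the only member called at 2 h (0.634% of tested genes): it was at 1714, 2519 and 2304 at 2 h against 1657, 1180 and 1114 at 0 h, higher by 0.73 ± 0.18 (adjusted p = 0.0499). At 8 h 3 members were called (3.29% of tested genes). Mt2 stayed higher (0.66 ± 0.18), Glul fell to 4465, 4501 and 4888 against 6160, 5847 and 6031 at 0 h (-0.38 ± 0.10), and Cd44 fell to 3244, 3806 and 3179 against 5402, 6050 and 5270 at 0 h (-0.71 ± 0.13, adjusted p = 0.000654). Neither Glul nor Cd44 overlapped between these times. The Mt2 call at 2 h was lost without replicate 2 or 3 of either group and with voom, and at 8 h the count became 1 without replicate 2 or 3 at 0 h or replicate 2 at 8 h and 7 without replicate 1 at 0 h.

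Under the WT label the called members fell. At 2 h, 4 were called (4.75% of tested genes): Slc4a4 (-1.48 ± 0.34), F3 (-1.46 ± 0.35), Mlc1 (-1.20 ± 0.33) and Cd44 (-0.47 ± 0.13). F3 was at 46.4, 37.2 and 31.6 at 2 h against 124, 115 and 82.6 at 0 h, and Mlc1 at 190, 153 and 238 at 2 h against 411, 621 and 331 at 0 h. The 2 times did not overlap in either gene. At 8 h, 4 were called (6.05% of tested genes): Fabp7 (-1.30 ± 0.24), Slc4a4 (-1.19 ± 0.34), Nes (-0.64 ± 0.17) and Vim (-0.44 ± 0.11). Fabp7 was at 450, 389 and 213 at 8 h against 1130, 779 and 643 at 0 h, and Vim at 18916, 19315 and 18211 at 8 h against 25066, 26204 and 25149 at 0 h. Relative to the core, Bcan (1.06 ± 0.28) was called higher and Slc4a4 (-1.08 ± 0.29) lower at 2 h (1.49% of tested genes). At 8 h, again relative to the core, limma called 0 members under either label (0.357% of tested genes under the PD-1 KO label and 1.25% under the WT label). There 7 members under the PD-1 KO label and 4 under the WT label had an unadjusted p under 0.05. All tested genes were not counted at that level, so these 2 counts are not read. Without replicate 2 at 0 h the WT-labelled counts became 0 at 2 h and 1 at 8 h, without replicate 2 at 2 h 0 at 2 h, and without replicate 3 at 8 h 2 at 8 h.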

How the data were processed

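RNA was sequenced from 30 libraries of mouse microglia cultures in 10 groups of 3. The deposited table holds 1 signal value per gene and library, gene counts to which the authors applied a factor for each library and a floor of 1. This follows from the values: each above the floor is a whole multiple of a library step, within a tolerance of 0.05 (100.0% of values up to 5000 reads). The tools HISAT 0.1.5, Partek 6.6, R 3.0.2 and DESeq2 and the build mm10 are named, per the submitters' processing notes, without roles. The counting program, its strand setting and the annotation are not given in the sources used here.

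Log2 of the value plus 1 was fitted with limma 3.58.1 (R 4.3.3), with an intensity trend and 1 mean per group over all 30 libraries, and p-values were adjusted over 13722 genes per comparison. The relative fit subtracted each library's core astrocyte level. Slopes and axes were computed in R 4.3.3, and level sums and promoter matches in Python 3.11.15 with numpy 2.4.6 and pandas 2.3.3. Figures were drawn with matplotlib 3.10.9. The label comparison, the 8 h amyloid-beta comparison under the WT label and the relative label comparison were tested on simulated data; the other comparisons, slopes, axes and promoter matches were not. In that test the relative fit called some genes given only the common factor, none of them at 0.5 or more. The simulation gave all core genes the same factor and no separate level from microglia. In the data the core genes differed between the labels by 1.60 (Acsbg1) to 3.66 (Ntsr2). It therefore does not show that 0.5 is a safe limit here. Relative differences under 0.5 are not read. Alternatives were pseudocounts of 0 and 10, no filter or a filter at 50, quantile and TMM scaling, array weights, only the groups compared, other common levels and leaving out each library. Voom on the recovered reads and the relative size of 0.5 were added after seeing the data.

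All members in the table are named; values were given for fixed genes, the 3 largest and 3 smallest label differences and members called with amyloid-beta or relative to the core, and further members were described by role. From other lists up to 3 called genes were named by size, and the few lower ones of 2 lists after their values were seen. Members and lists were chosen with earlier results of these data known. Positions are from GRCm38 (GENCODE), promoters from RefSeq GRCm38.p6.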

Additional observations from a re-analysis of the deposited data

Results flagged for a closer look

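The difference between the labels varied with time and treatment in 16 members, by an F test of the label difference over the 5 conditions in limma (adjusted p over all tested genes, 5.72% of which passed). The adjusted p was 0.00196 for Bcan, 0.00598 for Glul and 0.0083 for Gja1. It was 0.0204 for Fabp7, 0.0243 for Acsbg1, 0.0255 for Mlc1, 0.0318 for Clu and 0.032 for Aldh1l1. It was 0.034 for Aqp4, 0.0362 for Nes, 0.0396 for Aldoc and 0.0402 for Ndrg2. It was 0.0421 for Fgfr3, 0.0432 for Mt2, 0.0445 for Id4 and 0.0486 for Mt3. The order of Glul turned round with the deposited scaling: the PD-1 KO label was above the WT label by 0.35 ± 0.10 at 0 h and below it by a difference of -0.31 ± 0.10 at 8 h with amyloid-beta and -0.30 ± 0.10 at 8 h without it. Both 8 h values missed the threshold with quantile normalization (-0.08, adjusted p = 0.475, with amyloid-beta and -0.22, adjusted p = 0.0648, without) and with voom (-0.16, adjusted p = 0.143, with amyloid-beta and -0.20, adjusted p = 0.105, without). No group has more than 3 libraries, so single libraries were not screened for values far from their group.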

How the results depend on the processing

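No paired analysis was possible because the replicate numbers were assigned within groups and the labels give none that groups share. The planned quasi-likelihood count test on recovered reads was not run, since the floor hides the lowest counts. Over all conditions the count of members called between the labels was 36 under every alternative except voom and quantile normalization (37 each), and without any single library. Quantile normalization moved the median of all genes between the labels at 2 h with amyloid-beta to -0.11, from 0.02 as deposited, and the members' median over all conditions to 2.31. For the fall with amyloid-beta under the WT label at 8 h, the count of 9 became 5 with a pseudocount of 10, 3 with quantile normalization, 25 with array weights, 3 with only the groups compared and 0 with voom, and ran from 1 to 16 without single libraries. Its count relative to the core, 6, became 0 with quantile normalization and 16 with array weights, and ran from 0 to 12. The F test count of 16 became 10 with quantile normalization, 31 with array weights and 3 with voom, and ran from 5 to 27. At 2 h against 0 h under the PD-1 KO label the count of 1 became 0 with a pseudocount of 0, with no filter, with only the groups compared and with voom, and 4 with array weights, and ran from 0 to 1. At 8 h against 0 h under the PD-1 KO label the count of 3 became 5 with array weights and ran from 1 to 7, and relative to the core it was 3 with array weights and ran from 0 to 1. Under the WT label the count at 2 h against 0 h became 9 with array weights and 0 with only the groups compared and ran from 0 to 5. That at 8 h became 7 with array weights, 1 with only the groups compared and 2 with voom and ran from 1 to 4, and relative to the core it was 1 with array weights and 1 with the median of all members as the common level. Array weights also gave 4 members with amyloid-beta under the WT label at 2 h, and for the interaction 2 at 2 h and 10 at 8 h, where only the groups compared gave 1. Members near 0 changed sign. Relative to the core, a pseudocount of 10 gave Sox9 0.016, Fgfr3 -0.027 and Sparcl1 0.027, quantile normalization Fgfr3 -0.131 and Sparcl1 0.119, and the median of all members as the common level Sox9 0.094 and Sparcl1 0.034. The mean of 5 core genes gave Slc1a3 -0.177, S100b -0.007, Fgfr3 -0.231 and Ttyh1 -0.167. Without single libraries Fgfr3 ran from -0.013 to 0.064 relative to the core and Glul from -0.012 to 0.041 between the labels, and Glul was -0.014 with array weights. The cause of these changes was not tested.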
